A study of Mus musculus with 32 samples.

Results

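The nuclear-encoded genes of the mitochondrial respiratory chain were followed across 1-cell and 2-cell mouse embryos with intact or mutant Dppa2 or Dppa4. They were taken by name: every gene called Nduf, Cox4 to Cox8, Uqcr, Sdha to Sdhd or Atp5 that was present in both deposited expression tables, with pseudogene names left out. This gave 93 gene IDs of 46078, under 92 names, because Uqcrc1 has 2 IDs and the second (ENSMUSG00000107235) was listed at 0 in every library. The rule used names only, so no expression value chose a gene.

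The respiratory chain makes most of the ATP of an embryo before it implants. Complex I (NADH dehydrogenase) and complex II (succinate dehydrogenase) pass electrons to complex III, complex IV (cytochrome c oxidase) hands them to oxygen, and complex V (ATP synthase) uses the proton gradient they build. The mitochondrial genome encodes some subunits of complexes I, III, IV and V. All other subunits, the whole of complex II and the assembly factors are transcribed in the nucleus. The mouse 1-cell embryo lives largely on RNA laid down in the oocyte, and at the 2-cell stage much of that RNA is degraded while the embryo's own genome switches on.

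Dppa2 and Dppa4 are DNA-binding proteins of early embryos and pluripotent cells, and the series asked what becomes of the embryonic transcriptome without them. In the group names, m and z stand for the maternal and the zygotic allele, plus for intact and minus for mutant. Total RNA libraries came from Dppa2 m-z+ and Dppa2 m+z+ embryos, on a mixed B6/DBA background, and from Dppa4 m-z+ and Dppa4 m+z+ embryos, on B6. Each of these groups had 2 late 2-cell libraries, collected 28 hours after fertilization, and 2 late 1-cell libraries, collected at 12 hours. PolyA libraries, made from single embryos per the descriptions, came from Dppa2 m-z- and Dppa2 m-z+ embryos (mixed B6/DBA), Dppa4 m-z- and Dppa4 m-z+ embryos (B6) and WT embryos (B6). These had 3 libraries each at the 2-cell stage, except WT, which had 2 at 2-cell and 2 at 1-cell and whose descriptions name them controls of the Dppa4 arm. In each assay the strain background changes together with the targeted gene, so the 2 cannot be told apart. The labels give neither the type of mutation nor any Cre line, and they do not say how many embryos or litters stand behind a total RNA library, so the p-values measure the spread between libraries only.

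Values are FPKM (fragments scaled to gene length and to all mapped fragments), as deposited. They are per length and may be compared between genes, but the depth of the libraries is unknown, and the 2 tables were normalized separately. FPKM summed to between 412115 and 629583 in the total RNA libraries and between 539978 and 675241 in the polyA libraries, and 10706 to 13916 genes per library reached 1 FPKM. In 1-cell embryos the Dppa2 transcript was at 9.38 and 9.52 FPKM in Dppa2 m-z+ embryos, against 32.3 and 32.7 in Dppa2 m+z+ embryos. Dppa4 was at 0, 0 and 0.149 FPKM in the Dppa4 m-z- libraries. The libraries labelled Dppa2 m-z-, however, held Dppa2 at 155, 130 and 76.5 FPKM, against 92.4, 87.4 and 63.3 in Dppa2 m-z+ libraries, so the transcript does not mark that genotype. Oocyte and 2-cell embryo markers summed to 428 to 3224 FPKM and cumulus cell markers to 2.04 to 43.6 FPKM. Blood markers (Hba-a1, Hba-a2 and Cd74 in most libraries) summed to 4.58 to 14.8 FPKM in 2-cell and 0 to 0.0825 FPKM in 1-cell total RNA, and reached 1578 FPKM in 1 library labelled Dppa2 m-z-, which also held Hbb-bs and Hbb-bt. Their part in the results was not tested.

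Of the 93 IDs, 90 passed the low-value filter (1 FPKM in at least 2 libraries) in each table and 89 passed in both. The muscle isoform gene Cox8b and the second Uqcrc1 ID failed in both tables, the testis isoform gene Cox7b2 failed in total RNA, and Ndufa4l2, a relative of Ndufa4, failed in polyA RNA. The members with the highest levels differed between the assays. In total RNA the highest means over 16 libraries were those of Cox6c (75.2 FPKM), Atp5b (68.6), Cox8a (66.4), Atp5a1 (54.6) and Atp5h (36.9). In polyA RNA they were Cox8a (1150 FPKM), Atp5g1 (531), Ndufa4 (446), Cox6b2 (436) and Cox5a (394). Together the members held 0.136 to 0.228% of all FPKM in 2-cell and 0.335 to 0.393% in 1-cell total RNA libraries. In polyA RNA the shares were 1.18 to 1.75% in 2-cell libraries of all genotypes and 1.02 to 1.12% in WT 1-cell libraries. The groups did not overlap in either assay, and they stood in opposite order in the 2 assays.

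Stretches of promoter sequence are shown first. The letters of the nuclear respiratory factor 1 motif (NRF1, a known activator of respiratory chain genes) were more frequent in members than in all genes. In the 250 bases before the RefSeq start (GRCm38.p6, both strands) this palindromic motif, printed in capitals below, occurred in 14 of 76 members with a promoter entry (18.4%) and in 4.23% of 27025 genes. Of the 23 matched members that fell from 1-cell to 2-cell in all 4 total RNA comparisons below, 10 held these letters (43.5%). Of the 9 that rose in every stage comparison, only Ndufa11 did. The share among all genes that fell in all 4 total RNA comparisons was not counted. A link of the letters to the fall was not tested. The 30-base stretches below run 5′ to 3′ on the gene's strand, with the motif in capitals. The first 7 are from members that fell, followed by Ndufa11 and by Ndufaf4, the marker given with the gene set.
Sdha (chr13:74350276-74350305, minus strand): ggggcgtgttGCGCAGGCGCagaatcttcc
Sdhd (chr9:50603909-50603938, minus strand): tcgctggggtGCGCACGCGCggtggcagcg
Ndufa8 (chr2:36049349-36049378, minus strand): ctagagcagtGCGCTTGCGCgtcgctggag
Ndufs5 (chr4:123718265-123718294, minus strand): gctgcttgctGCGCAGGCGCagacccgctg
Ndufb4 (chr16:37654540-37654569, minus strand): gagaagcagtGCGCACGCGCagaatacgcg
Atp5g2 (chr15:102671070-102671099, minus strand): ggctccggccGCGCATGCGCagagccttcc
Atp5h (chr11:115420041-115420070, minus strand): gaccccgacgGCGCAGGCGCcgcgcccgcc
Ndufa11 (chr17:56717692-56717721, plus strand): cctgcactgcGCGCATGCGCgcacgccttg
Ndufaf4 (chr4:24897960-24897989, plus strand): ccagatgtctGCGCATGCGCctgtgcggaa

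In Ndufa8 the letters match when read from the other strand. The motifs in these stretches begin 30 (Ndufa8) to 191 (Ndufb4) bases before the RefSeq start. The stretches of Sdha, Ndufa8 and Atp5g2 overlap an exon of another annotated transcript of the same gene, and that of Sdhd lies in an annotated exon of the neighbouring gene Timm8b. Letters of other factors stood closer to the background: CCGGAAG (GABPA) in 17.1% of members and 7.83% of genes, GGGCGG (SP1) in 39.5% and 35.4%, and AAGATGGC (YY1) in 2.63% and 1.83%. Such matches describe the sequence, and the groups were chosen by stage calls, so no test was made.

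The first comparison asks how RNA of the chain changed between the 1-cell and 2-cell stages. In total RNA more members fell than rose in each of the 4 groups. The succinate dehydrogenase genes Sdha, Sdhc and Sdhd, complex I accessory subunits such as Ndufa8 and the core subunit Uqcrc2 of complex III fell in all 4 groups. The c-ring subunit Atp5g1, the complex III core subunit Uqcrc1, the peripheral stalk subunit Atp5o and the assembly factor Ndufaf5 rose in all 4. In polyA RNA of WT embryos more members rose than fell.

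Changes were tested with limma on log2(FPKM + 1), with Benjamini-Hochberg adjustment over all genes tested and an adjusted p under 0.05 as the threshold. This scale understates the change of low genes. Of 90 members, 14 rose and 36 fell in Dppa2 m-z+ embryos, where 28.8% of all 15068 genes tested rose and 28.4% fell. In Dppa2 m+z+ embryos 24 rose and 35 fell, against 31.7% and 29.9% of all genes. In Dppa4 m-z+ embryos 12 rose and 46 fell (25.3% and 25% of all genes), and in Dppa4 m+z+ embryos 13 rose and 45 fell (24.9% and 24.2%). The members' median log2 change was -0.57, -0.44, -0.82 and -0.64 in these 4 groups in the same order, and that of all genes 0.02, 0.06, 0.03 and 0.04. In WT polyA RNA 35 members rose and 8 fell, against 17.4% and 8.42% of 18506 genes, with medians of 0.96 for the members and 0.23 for all genes. The count of members that rose in Dppa4 m-z+ embryos was 7 without 2-cell replicate 2, and in Dppa4 m+z+ embryos 6 without 1-cell replicate 2 and 7 without 2-cell replicate 1. The 8 falls in WT became 5 without either 1-cell library or without 2-cell replicate 1. Rescaled to TPM, which moved the median of all genes by -0.20 to -0.36 in total RNA and -0.10 in polyA RNA, the counts became 11 risen and 43 fallen in Dppa2 m-z+, 13 and 46 in Dppa2 m+z+, 7 and 55 in Dppa4 m-z+, 7 and 46 in Dppa4 m+z+ and 34 and 13 in WT embryos. Scaled by median ratios, WT had 30 and 15. The counts of all genes moved as well. Under TPM 3794 rose and 5098 fell in Dppa2 m-z+, 3750 and 5802 in Dppa2 m+z+ and 3146 and 5019 in Dppa4 m-z+. In Dppa4 m+z+ they were 3087 and 4834 (each of 15068), and in WT 3039 and 1831 of 18506. By median ratios WT had 2805 and 2355 of all genes. In whole embryos, fewer cells with a transcript and less of it per cell cannot be told apart.

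**Figure D1:**
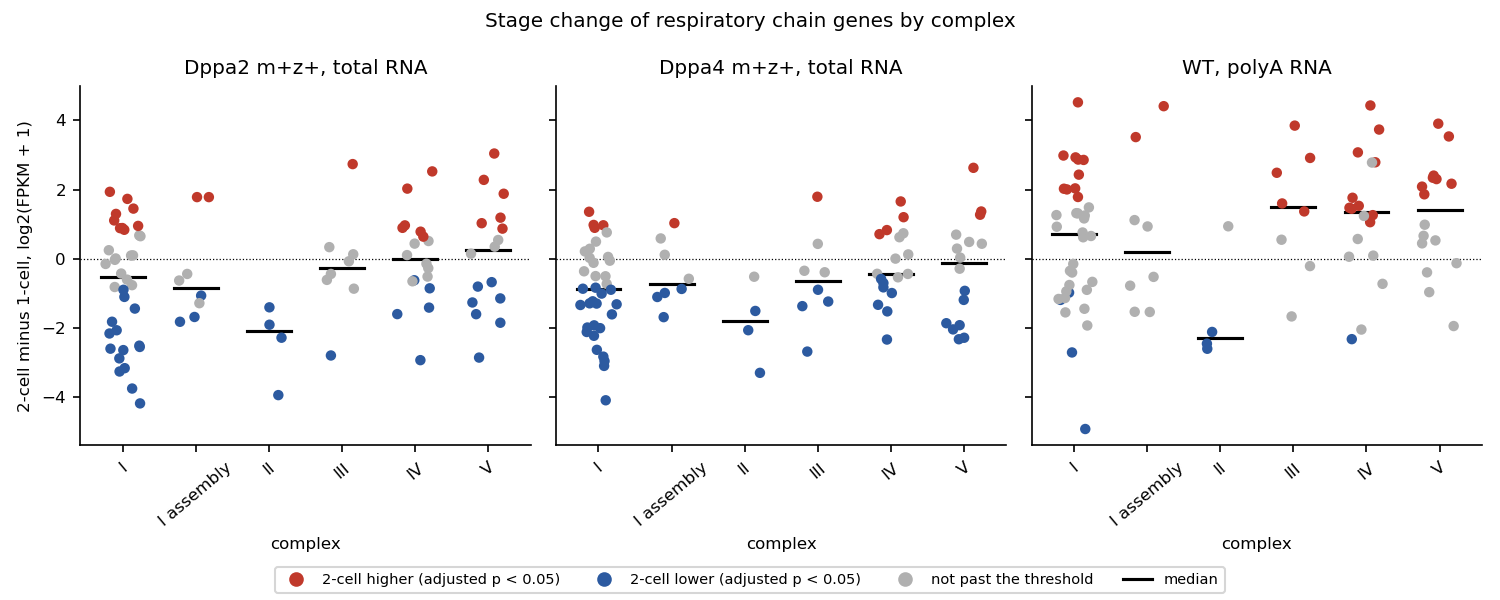
Each dot is 1 respiratory chain gene, placed by its log2 change in FPKM from 1-cell to 2-cell (y axis, log2(FPKM + 1) scale) and grouped by complex (x axis), in Dppa2 m+z+ total RNA, Dppa4 m+z+ total RNA and WT polyA RNA. Red dots rose, blue dots fell and grey dots did not pass the test; the black line is the median, which lies lowest for complex II in all 3 panels.

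Across all 5 stage comparisons, which use separate libraries, 9 members rose every time and 8 fell every time, of 89 tested in both assays (10.1% and 8.99%). Of all 13916 genes tested in both, 12.0% rose and 7.72% fell every time, so these shares of the members were near the background. Those that rose were Ndufa11, Ndufb6 and Ndufb10 of complex I, its assembly factor Ndufaf5, Uqcrc1, Cox6b2, Cox8a, Atp5g1 and Atp5o. Those that fell were Ndufa8, Ndufa10, Ndufab1 and Ndufb5 of complex I, Sdha, Sdhc, Sdhd and Cox7a2l. No call was made in any of the 5 for Ndufv1, Ndufs1, Ndufb11, Uqcr11, Cox6c, Cox8c and Atp5b, or 7.87% of members, against 20.3% of all genes. A further 20 members fell in all 4 total RNA comparisons but not in polyA RNA, for 28 in all (31.5% of members, against 19.0% of all genes).

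Complex I takes electrons from NADH. Counts by complex stand beside the shares of all genes given above. These were 24.9 to 31.7% risen and 24.2 to 29.9% fallen in the 4 total RNA groups, and 17.4% and 8.42% in WT polyA RNA. Among its 36 nuclear subunits tested, 5 rose and 16 fell in Dppa2 m-z+, 9 and 15 in Dppa2 m+z+, 4 and 19 in Dppa4 m-z+, 4 and 20 in Dppa4 m+z+ total RNA, and 10 and 4 in WT polyA RNA. Of the 29 supernumerary subunits, which surround the catalytic core, 14 to 17 fell in each total RNA comparison, and of the 7 core subunits 1 to 3 did. Ndufa8, an accessory subunit, had the lowest log2 change of all members in WT polyA RNA. It was at 2.0 and 1.1 FPKM in WT 2-cell embryos and at 71.6 and 78.4 FPKM in WT 1-cell polyA libraries, a log2 change of -4.92 ± 0.57 (SE, limma adjusted p = 5.4e-06). In total RNA it stood between 0 and 2.25 FPKM in the 8 2-cell libraries and between 22.1 and 28.5 FPKM in the 8 1-cell libraries, with no overlap in either assay. Its log2 change in total RNA ran from -4.62 to -3.10 over the 4 groups.

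Ndufa10, a subunit related to nucleoside kinases, was at 5.21 and 8.32 FPKM in Dppa4 m+z+ 2-cell libraries and at 31.4 and 32.5 FPKM in 1-cell libraries (log2 change -2.11 ± 0.25, adjusted p = 2.3e-05). Its WT polyA values were 18.9 and 7.42 FPKM in 2-cell and 85.7 and 81.4 FPKM in 1-cell embryos. Ndufc2, a subunit of the membrane arm, fell by 2.43 to 4.09 on the log2 scale in total RNA. Its values in Dppa4 m+z+ embryos were 0.95 and 0.297 FPKM at 2-cell and 24 and 28.3 FPKM at 1-cell. Ndufc1, another membrane arm subunit, was at 5.27 and 1.24 FPKM in Dppa4 m+z+ 2-cell and at 2.68 and 2.55 FPKM in 1-cell total RNA, which overlapped and gave no call in any of the 4 groups. In WT polyA RNA it rose, with 96.8 and 59.9 FPKM at 2-cell and 1.69 and 3.21 FPKM at 1-cell (4.52 ± 0.49, adjusted p = 2.5e-06), the largest rise of any member there.

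Ndufs5, an accessory subunit with a near-identical copy elsewhere, fell by 2.63 to 4.18 on the log2 scale in total RNA, and Ndufa5 by 2.83 to 3.82. At the 1-cell stage Ndufs5 was at 45.5 to 53.9 FPKM in the 4 Dppa2 libraries and at 16.4 to 22.5 FPKM in the 4 Dppa4 libraries, while all 2-cell libraries lay between 1.36 and 6.73 FPKM. Neither gene was called in WT polyA RNA (-1.13 and -1.55).

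Fewer complex I subunits rose than fell in total RNA. Ndufa11, a membrane subunit, was at 2.64 and 2.49 FPKM in Dppa4 m+z+ 2-cell libraries and at 1.06 and 0.782 FPKM in 1-cell libraries (log2 change 0.89 ± 0.21, adjusted p = 0.0034). It was at 41.1 and 46.1 FPKM in WT 2-cell embryos and 4.64 and 4.62 FPKM in WT 1-cell embryos in polyA RNA. All 8 2-cell total RNA libraries lay above all 8 1-cell libraries for this gene. Ndufb6, of the membrane arm, had 11 and 7.89 FPKM at 2-cell and 3.37 and 2.7 FPKM at 1-cell in Dppa4 m+z+ embryos, and its exons overlap those of Smim27. Among the core subunits Ndufs8, which carries iron-sulfur clusters, rose in both Dppa2 groups (1.99 and 1.73 on the log2 scale) and in WT polyA RNA (2.93 ± 0.49). In Dppa4 m-z+ and m+z+ embryos its log2 changes were 0.78 and 0.76, with adjusted p-values of 0.053 and 0.059.

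The NADH-binding subunit Ndufv1 and the core subunit Ndufs1 were called in none of the 5 comparisons, with 3.91 and 3.86 FPKM for Ndufv1 in Dppa4 m+z+ 2-cell and 6.09 and 2.95 FPKM in 1-cell total RNA. Ndufa9 rose in Dppa2 m+z+ total RNA (0.84 ± 0.33) and in WT polyA RNA, where it was at 98.3 and 74.6 FPKM at 2-cell and 14.1 and 16 FPKM at 1-cell.

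Of the 8 complex I assembly factors, 1 to 2 rose and 2 to 6 fell in total RNA, and 2 rose and none fell in WT polyA RNA. The shares of all genes are those given for complex I. Ndufaf5, which in human cells hydroxylates the core subunit NDUFS7, rose in every group. It was at 12.8 and 14.2 FPKM in Dppa2 m-z+ 2-cell and at 3.45 and 2.51 FPKM in 1-cell embryos (1.88 ± 0.32, adjusted p = 0.00024). In WT polyA RNA it was at 87.8 and 86.4 FPKM at 2-cell and at 3.35 and 2.96 FPKM at 1-cell (4.41 ± 0.45). Its 2-cell and 1-cell libraries did not overlap in either assay. Ndufaf2, which holds the place of a late subunit during assembly, fell in all 4 total RNA groups (-1.68 to -1.88) and was not called in polyA RNA. Ndufaf1 was at or under 0.415 FPKM in every 1-cell total RNA library and at 15.5 and 10.2 FPKM in WT 2-cell polyA libraries, against 0 and 0.407 FPKM in WT 1-cell libraries.

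Complex II links the citric acid cycle to the chain and is wholly nuclear-encoded. It had the lowest median of any complex in every stage comparison, from -2.24 to -1.79 in total RNA and -2.28 in WT polyA RNA. Sdhd, the small membrane anchor, held 2.78 and 2.92 FPKM in Dppa4 m+z+ 2-cell libraries and 37.2 and 36.4 FPKM in 1-cell libraries (-3.30 ± 0.22, adjusted p = 2.4e-07). Over all total RNA libraries it stood between 1.34 and 3.46 FPKM at 2-cell and between 33.2 and 43.9 FPKM at 1-cell, without overlap. PolyA libraries of WT embryos held 15.3 and 13.6 FPKM at 2-cell and 83.7 and 83.1 FPKM at 1-cell.

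Sdha, the flavoprotein that oxidizes succinate, was at 8.96 and 18.8 FPKM in Dppa4 m+z+ 2-cell and at 39 and 38.9 FPKM in 1-cell total RNA (-1.51 ± 0.28, adjusted p = 0.00077). Its WT polyA values were 8.53 and 6.93 FPKM at 2-cell and 57.1 and 46.8 FPKM at 1-cell (-2.60 ± 0.68, adjusted p = 0.0089), a call lost without WT 1-cell replicate 1 (-2.46) or WT 2-cell replicate 2 (-2.47). The other anchor, Sdhc, fell in every group, by 1.90 to 2.11 on the log2 scale, and its call in WT was lost without either 1-cell library or without 2-cell replicate 1. The iron-sulfur subunit Sdhb fell only in Dppa2 m+z+ and Dppa4 m-z+ total RNA (-1.40 and -1.51). It was at 1.7 and 1.36 FPKM in Dppa4 m+z+ 2-cell and 2.69 and 2.53 FPKM in 1-cell total RNA, not past the threshold, and at 7.38 and 19.9 FPKM in WT 2-cell against 6.62 and 5.26 FPKM in WT 1-cell polyA RNA, also not called.

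Complex III passes electrons from ubiquinol to cytochrome c. Of 8 subunits tested, 1 rose and 1 to 4 fell in total RNA, and 5 rose and none fell in WT polyA RNA. Again the shares of all genes are those given for complex I. Its 2 core subunits moved in opposite directions. Uqcrc1 held 6.09 and 2.29 FPKM in Dppa4 m+z+ 2-cell and 0.679 and 0.159 FPKM in 1-cell total RNA (1.79 ± 0.45, adjusted p = 0.0053). Uqcrc2 in the same libraries held 4.87 and 5 FPKM at 2-cell and 40.5 and 33.9 FPKM at 1-cell (-2.68 ± 0.23, adjusted p = 1.8e-06). Neither gene's groups overlapped, and at the 1-cell stage Uqcrc2 stood far above Uqcrc1, whereas at 2-cell they were of similar level.

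In WT polyA RNA Uqcrc1 was at 15.6 and 22.1 FPKM at 2-cell and at 0.784 and 0.0363 FPKM at 1-cell (3.85 ± 0.57, adjusted p = 7.2e-05). Uqcrc2 was at 48.7 and 25.8 FPKM at 2-cell and at 133 and 98.9 FPKM at 1-cell, not past the threshold (-1.67 ± 0.62, adjusted p = 0.057). The rise of Uqcrc1 in total RNA lost its call without 1-cell replicate 2 in Dppa2 m-z+ (0.92) and in Dppa4 m+z+ embryos (1.53), and without 2-cell replicate 2 in Dppa2 m-z+ (1.27) or replicate 1 in Dppa4 m+z+ embryos (1.24). Uqcrfs1, the Rieske iron-sulfur protein, was not called in total RNA, with 14.2 and 7.88 FPKM at 2-cell and 14.5 and 13.1 FPKM at 1-cell in Dppa4 m+z+ embryos. It rose in WT polyA RNA, with 90.8 and 61.5 FPKM at 2-cell and 10.7 and 7.61 FPKM at 1-cell (2.91 ± 0.40, adjusted p = 3.5e-05).

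Complex IV reduces oxygen to water. Of its 18 nuclear genes tested, 3 to 6 rose and 5 to 7 fell in total RNA, and 10 rose and 1 fell in WT polyA RNA. The total RNA counts were near the shares of all genes (24.9 to 31.7% risen and 24.2 to 29.9% fallen). In WT polyA RNA those shares were 17.4% and 8.42%. Cox8a, the ubiquitous form of a small membrane subunit and the member with the highest mean over the 16 polyA libraries, was at 76.8 and 68 FPKM in Dppa4 m+z+ 2-cell and at 42.8 and 37.9 FPKM in 1-cell total RNA (0.83 ± 0.19, adjusted p = 0.0027). It was at 1473 and 1356 FPKM in WT 2-cell embryos and 487 and 530 FPKM in WT 1-cell polyA RNA (1.47 ± 0.27). Its groups did not overlap, but with values rescaled to TPM the call was kept only in Dppa2 m-z+ among the total RNA groups, the other 3 having log2 changes of 0.44 to 0.48. Cox7a2l, which joins complexes III and IV into supercomplexes, fell in every group. It was at 6.55 and 8.47 FPKM in Dppa4 m+z+ 2-cell and 43.2 and 40 FPKM in 1-cell total RNA (-2.33 ± 0.24, adjusted p = 7.2e-06), and at 19.5 and 24.1 FPKM in WT 2-cell embryos and 99.1 and 127 FPKM in WT 1-cell polyA RNA.

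Cox5a and Cox5b, which sit on the matrix side of the enzyme, fell in all 4 total RNA groups (-0.99 to -1.62 and -0.62 to -1.36) and were not called in WT polyA RNA (-0.72 and 0.06). Cox7c, a small membrane subunit, rose in Dppa2 m-z+, Dppa2 m+z+ and Dppa4 m-z+ total RNA and in WT polyA RNA. It was at 225 and 111 FPKM in WT 2-cell embryos and at 5.69 and 7.17 FPKM in WT 1-cell polyA RNA (4.43 ± 0.49, adjusted p = 2.9e-06). Cox6c, the member with the highest mean over the 16 total RNA libraries, was at 41.6 and 60.8 FPKM in Dppa4 m+z+ 2-cell and 58.7 and 79.4 FPKM in 1-cell libraries, which overlapped, and it was called in no group.

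Complex V makes ATP. Of its 16 genes, 3 to 6 rose and 6 to 7 fell in total RNA, and 8 rose and none fell in WT polyA RNA. Shares of all genes are those given for complex IV. The catalytic subunit Atp5b was at 75.3 and 66 FPKM in Dppa4 m+z+ 2-cell and 60.8 and 54.1 FPKM in 1-cell total RNA, and at 178 and 225 FPKM in WT 2-cell embryos and 168 and 114 FPKM in WT 1-cell polyA RNA. None of the 5 changes of Atp5b passed the test (log2 changes of 0.15 to 0.53, below 0 in total RNA when rescaled to TPM). Its partner in the catalytic head, Atp5a1, fell in all 4 total RNA groups, with 35.8 and 32.3 FPKM at 2-cell and 60.4 and 71 FPKM at 1-cell in Dppa4 m+z+ embryos (-0.93 ± 0.18, adjusted p = 0.00085). Its polyA values, 64.9 and 50.7 FPKM in WT 2-cell embryos and 77 and 74.3 FPKM in WT 1-cell embryos, gave no call. Atp5o, of the stalk that holds the head still, rose everywhere: it was at 12.7 and 11.8 FPKM in Dppa4 m+z+ 2-cell and 4.51 and 3.77 FPKM in 1-cell total RNA (1.37 ± 0.28, adjusted p = 0.0015). Its WT polyA values were 121 and 98.3 FPKM at 2-cell and 7.12 and 10.1 FPKM at 1-cell.

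Subunit c of ATP synthase, which forms the rotating ring, is made from 3 genes whose mature proteins are the same, and the genes moved differently. Atp5g1 was at 29.6 and 22.8 FPKM in Dppa4 m+z+ 2-cell and at 3.55 and 3.19 FPKM in 1-cell total RNA (2.63 ± 0.26, adjusted p = 5.4e-06). Atp5g2 was at 0.255 and 1.55 FPKM in Dppa4 m+z+ 2-cell and at 8.07 and 7.85 FPKM in 1-cell total RNA (-2.32 ± 0.34, adjusted p = 0.00013). Atp5g3 was at 8.39 and 3.61 FPKM in Dppa4 m+z+ 2-cell and at 3.91 and 3.49 FPKM in 1-cell total RNA, without a call (0.49 ± 0.35). For Atp5g1 all 8 2-cell total RNA libraries (20.5 to 52.9 FPKM) lay above all 8 1-cell libraries (2.4 to 4.57 FPKM), and for Atp5g2 all 8 2-cell libraries (0 to 1.55 FPKM) lay below the 1-cell libraries (6.13 to 9.56 FPKM). In WT polyA RNA Atp5g1 stood at 718 and 802 FPKM at 2-cell and 56.8 and 43.6 FPKM at 1-cell (3.90 ± 0.39, adjusted p = 1.1e-06), and Atp5g3 also rose (2.34 ± 0.47). Atp5g2 was at 8.25 and 2.96 FPKM at 2-cell and 22.7 and 21.9 FPKM at 1-cell in WT polyA RNA, not past the threshold (-1.94 ± 0.74, adjusted p = 0.064). The rise of Atp5g1 kept its call under every alternative tried. Atp5g1 has 1 near-identical copy elsewhere in the genome and Atp5g2 has 2, which reads may have been shared with.

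**Figure D2:**
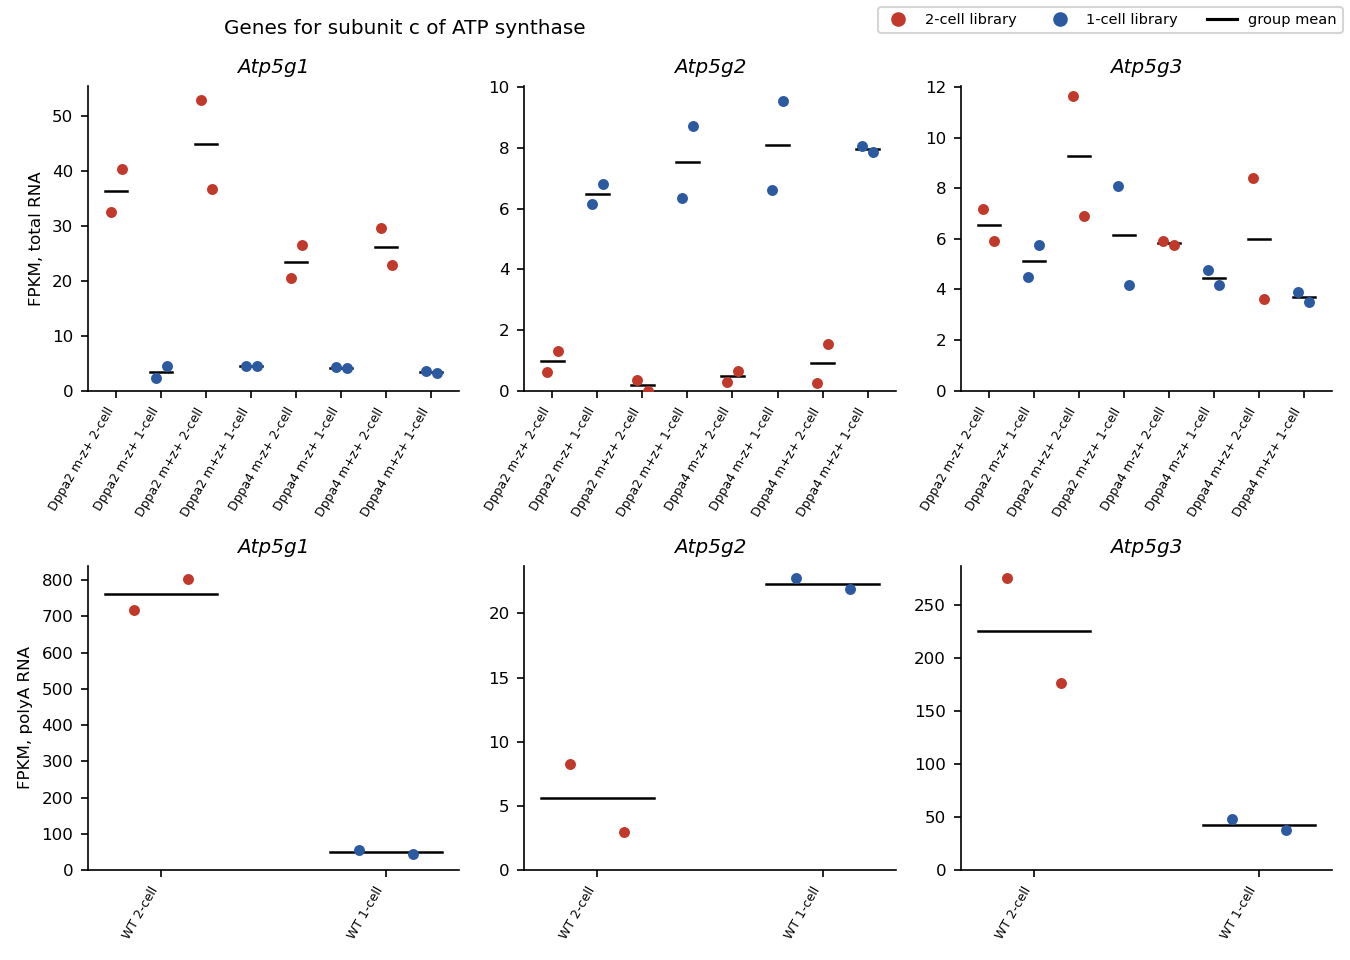
FPKM of the 3 genes for ATP synthase subunit c in each library (y axis), 2-cell in red to the left of 1-cell in blue, with total RNA groups in the upper row and WT polyA RNA in the lower row. Atp5g1 is higher in every 2-cell library, Atp5g2 in every 1-cell library, and Atp5g3 passed the test only in WT polyA RNA.

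Other subunits also have tissue isoforms. Cox6b2, the testis isoform of subunit 6b, exceeded the common Cox6b1 in every 2-cell library of both assays, with 446 and 502 FPKM against 222 and 194 FPKM for Cox6b1 in WT 2-cell polyA RNA. This order was not particular to 2-cell. At 1-cell the mean of Cox6b2 was also higher in WT polyA RNA (229 against 76 FPKM) and in both Dppa2 total RNA groups. It was near that of Cox6b1 in Dppa4 m-z+ (15.7 against 15.6 FPKM) and lower in Dppa4 m+z+ 1-cell embryos (12.6 against 17.8 FPKM). Cox6b2 rose in all 5 comparisons, although the calls in Dppa2 m-z+, Dppa2 m+z+ and Dppa4 m-z+ embryos were lost with values rescaled to TPM (log2 changes of 0.63, 0.20 and 0.59). Single libraries also decided these calls: that in Dppa2 m-z+ was lost without replicate 1 of either stage (0.84 and 0.78), that in Dppa2 m+z+ without 1-cell replicate 2 (0.39) or either 2-cell library (0.65 and 0.63), that in Dppa4 m-z+ without 1-cell replicate 1 (0.76) or 2-cell replicate 2 (0.66), and that in WT without 1-cell replicate 1 (0.85) or 2-cell replicate 2 (0.97). The heart and muscle isoform Cox6a2 fell in all 4 total RNA groups (-1.49 to -2.25), while the common Cox6a1 fell in Dppa4 m-z+ total RNA alone (-1.02) and rose in WT polyA RNA (1.76 ± 0.32). Cox7a1, the muscle isoform of subunit 7a, was listed at 0 in every 1-cell library of both assays and was at 19.4 and 2.47 FPKM in WT 2-cell polyA RNA. The lung isoform Cox4i2 was at 14.7 and 10.3 FPKM in WT 2-cell polyA RNA and listed at 0 in both WT 1-cell libraries. Its common counterpart Cox4i1 was at 189 and 148 FPKM in WT 2-cell embryos and 56.4 and 84.4 FPKM in WT 1-cell polyA RNA, and its exons overlap those of Emc8.

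Some members moved in opposite directions in Dppa4 m+z+ total RNA and in WT polyA RNA. The comparison of stages in Dppa4 m+z+ total RNA and in WT polyA RNA rests on B6 embryos of the same 2 time points. Of the 45 members that fell in Dppa4 m+z+ total RNA, 8 also fell in WT polyA RNA, 30 were not called there and 7 rose. Those 7 (Ndufa2, Ndufv2, Uqcrb, Uqcrq, Cox4i1, Cox6b1 and Cox7b) made up 15.6% of the 45. The pattern did not hold over the other total RNA groups: no member fell in all 4 and rose in WT polyA RNA (0.115% of all genes did), and Ndufa2 and Cox6b1 rose in Dppa2 m+z+ total RNA (0.89 and 0.78). Among all genes that fell in Dppa4 m+z+ total RNA, 87 of 3544 (2.45%) rose in WT polyA RNA and 33.6% fell. Of the 7 members, Ndufa2, Uqcrb and Cox4i1 have exons that overlap a gene on the other strand, which the unstranded polyA libraries cannot separate. Uqcrb has 3 and Cox7b has 2 near-identical copies elsewhere. The part of overlaps and copies in the opposite directions was not tested. Ndufv2, a core subunit of complex I, was at 7.73 and 7.66 FPKM in Dppa4 m+z+ 2-cell and 18.5 and 22.3 FPKM in 1-cell total RNA (-1.29 ± 0.26, adjusted p = 0.0012). Its WT polyA values were 88.6 and 97.1 FPKM at 2-cell and 21.4 and 22.4 FPKM at 1-cell (2.03 ± 0.39, adjusted p = 0.00093). The groups did not overlap in either assay.

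Uqcrb, the ubiquinone-binding small subunit of complex III, was at 12.5 and 5.85 FPKM in Dppa4 m+z+ 2-cell and 24.2 and 23.4 FPKM in 1-cell total RNA, and at 171 and 161 FPKM in WT 2-cell embryos and 68.3 and 42.9 FPKM in WT 1-cell polyA RNA. Cox7b, of complex IV, was at 21.2 and 15.9 FPKM in Dppa4 m+z+ 2-cell and 24.3 and 32.1 FPKM in 1-cell total RNA, and at 257 and 452 FPKM in WT 2-cell embryos and 47.5 and 49.6 FPKM in WT 1-cell polyA RNA. No member rose in Dppa4 m+z+ total RNA and fell in WT polyA RNA. Another 15 members (16.9%, against 6.46% of all genes) rose in WT polyA RNA without a call in Dppa4 m+z+ total RNA, among them Ndufc1, Cox7c, Uqcrfs1 and Atp5g3. Over the 89 members the log2 changes of the 2 assays had a Pearson r of 0.77, and over all 13916 genes tested in both 0.775, which describes genes and not replicates. Members' levels within a table share each library's normalization.

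**Figure D3:**
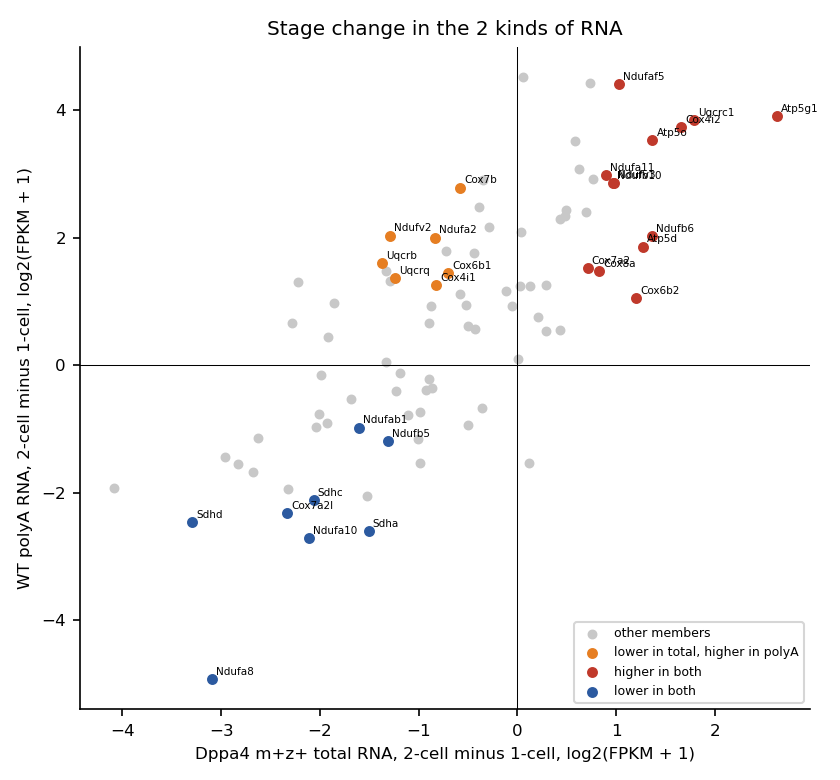
Stage change of each respiratory chain gene in Dppa4 m+z+ total RNA (x axis) and in WT polyA RNA (y axis), both as log2 change from 1-cell to 2-cell on the log2(FPKM + 1) scale. Red marks the 13 genes that rose in both, blue the 8 that fell in both and orange the 7 that fell in total RNA and rose in polyA RNA.

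The second question is whether embryos with a mutant maternal Dppa2 or Dppa4 allele differ in these genes. No member passed the threshold in any of the 12 genotype and interaction contrasts (limma, adjusted p under 0.05). In Dppa2 m-z+ against Dppa2 m+z+ embryos 0 members were called at 2-cell, where 0.186% of all genes were, and 12 had an unadjusted p under 0.05. At 1-cell the numbers were 0 called, 0.0398% of all genes, and 2 members at an unadjusted p under 0.05. In Dppa4 m-z+ against m+z+ embryos 0 members were called at 2-cell, where 0% of all genes were, and 6 had an unadjusted p under 0.05. At 1-cell 0 were called (0.00664% of all genes), with 1 at an unadjusted p under 0.05. The stage change did not differ by genotype for any member past the threshold either: 12 members in the Dppa2 arm (0% of all genes called) and 4 in the Dppa4 arm (0.00664%) had an unadjusted p under 0.05. The shares of all genes are at the adjusted threshold. None is given for an unadjusted p under 0.05, so those counts have no background here.

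In the Dppa2 arm at 2-cell the lowest p-values were those of 2 complex I genes, Ndufa6 and Ndufaf3, and of Cox7a1 of complex IV. Ndufa6, an accessory subunit, was at 5.58 and 3.95 FPKM in Dppa2 m-z+ and 1.75 and 0.491 FPKM in Dppa2 m+z+ 2-cell embryos (1.49 ± 0.29, adjusted p = 0.0545). The assembly factor Ndufaf3 was at 3.39 and 1.54 FPKM in Dppa2 m-z+ and 0.223 and 0 FPKM in Dppa2 m+z+ 2-cell embryos (adjusted p = 0.0705). Cox7a1 was listed at 0 in both Dppa2 m-z+ libraries and was at 1.33 and 6.14 FPKM in Dppa2 m+z+ 2-cell libraries (adjusted p = 0.0785). The groups did not overlap for these 3 genes, which all had low values and were picked for the lowest p. Groups of 2 libraries separate easily, and the share of all genes that did so was not counted. Leaving out any 1 of the 4 libraries changed the count of called members to between 1 and 3: it was 3 without Dppa2 m+z+ replicate 1 or m-z+ replicate 2, and 1 without the other replicate of each group.

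Ndufaf4, which works with Ndufaf3 early in complex I assembly, had opposite values in the 2 arms. At 2-cell the Dppa4 m-z+ libraries held 18 and 14.4 FPKM of total RNA, against 38.5 and 47.8 in Dppa4 m+z+ libraries (-1.36 ± 0.29, adjusted p = 0.562). In the Dppa2 arm it was at 44.8 and 35.2 FPKM in m-z+ and 12.6 and 30 FPKM in m+z+ 2-cell total RNA (0.99 ± 0.29, adjusted p = 0.178). Neither pair overlapped. The difference between the arms, a contrast added after seeing the data, was 2.35 ± 0.42 as a log2 difference (adjusted p = 0.109), where 0.00664% of all genes were called (0 members, and 0 at 1-cell against 0.0199%). For Ndufaf4 it passed the threshold without Dppa2 m+z+ replicate 1 (1.76) or replicate 2 (2.95), or without Dppa2 m-z+ replicate 2 (2.52). At the 1-cell stage all 8 total RNA libraries lay between 36.5 and 43.7 FPKM. The stage change accordingly passed as a fall in Dppa4 m-z+ (-1.23 ± 0.29) and Dppa2 m+z+ embryos (-1.06 ± 0.29, lost without 2-cell replicate 1 at -0.47) and was 0.01 and 0.12 in Dppa2 m-z+ and Dppa4 m+z+ embryos.

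In polyA RNA, m+z+ embryos of the mixed background were not analysed here, so the Dppa2 contrast above has no counterpart. Ndufaf4 was at 21.7, 17.9 and 32.8 FPKM in libraries labelled Dppa2 m-z-, and at 36.6, 23.1 and 125 FPKM in Dppa2 m-z+ libraries. In the Dppa4 arm it was at 44.2, 46.3 and 35.6 FPKM in m-z- and 29.4, 42.1 and 27.4 FPKM in m-z+ libraries. WT libraries held 25.8 and 42.4 FPKM at 2-cell and 92.6 and 103 FPKM at 1-cell, and Dppa4 m-z+ differed from WT at 2-cell by -0.03 ± 0.52, not past the threshold. Apart from the single value of 125 FPKM all 2-cell polyA libraries lay between 17.9 and 46.3 FPKM, below the WT 1-cell libraries. All Dppa4 m-z- libraries lay above all those labelled Dppa2 m-z-, a difference not past the threshold.

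**Figure D4:**
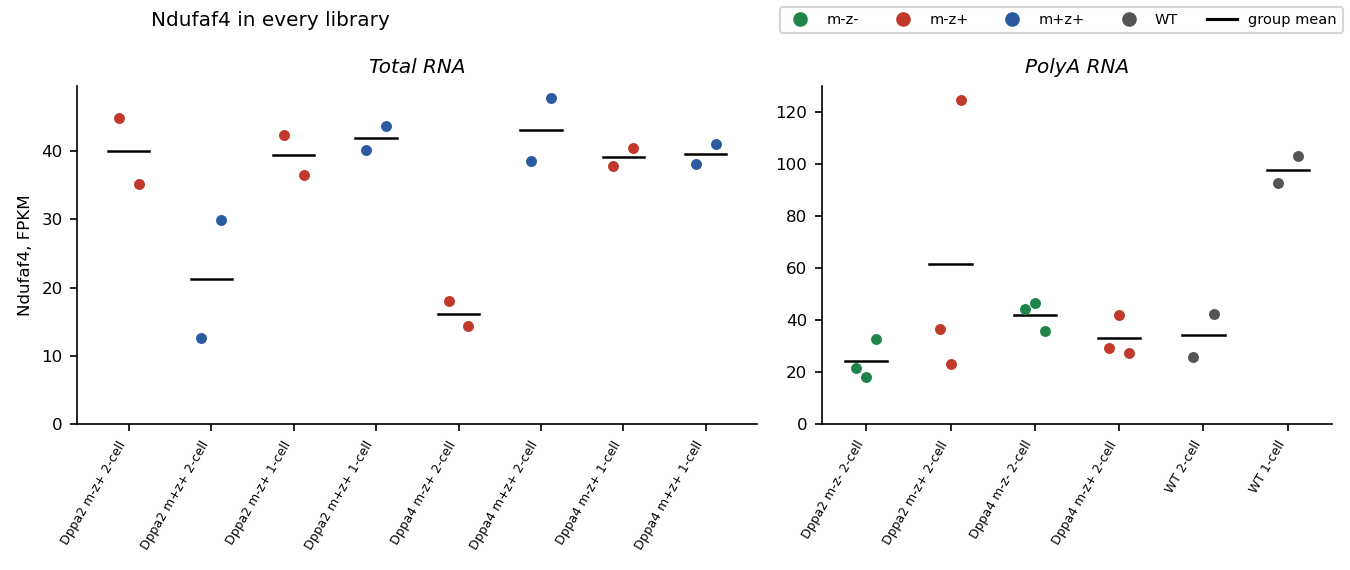
Ndufaf4 in every library (points, FPKM) by group, with the group mean as a black line. In 2-cell total RNA the Dppa4 m-z+ libraries lie at 18 and 14.4 FPKM, below both Dppa4 m+z+ libraries, whereas both Dppa2 m-z+ libraries lie above those of Dppa2 m+z+.

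In 2-cell polyA RNA, libraries labelled Dppa2 m-z- had 0 members called against Dppa2 m-z+ (0.0054% of all genes) and 0 against WT (0.0973%), with 6 and 5 members at an unadjusted p under 0.05. Dppa2 m-z+ against WT also had 0 (0.113%), with 6 members at an unadjusted p under 0.05. Dppa4 m-z- had 0 called against Dppa4 m-z+ (0.0162%) and 0 against WT (0.0648%), with 9 and 27 members at an unadjusted p under 0.05. Dppa4 m-z+ against WT had 0 (0% of all genes), with 13 at an unadjusted p under 0.05. The shares of all genes are again at the adjusted threshold. The counts at an unadjusted p have no such share beside them and cannot be read as an excess. In both Dppa4 groups the median member was below WT, which describes genes and was not tested. The members' median was -0.49 for m-z- against WT, where that of all genes was 0.00, and 69 of 90 members were below 0. For m-z+ against WT the median was -0.49, against -0.09 for all genes, and 73 of 90 were below 0. Both comparisons use the same 2 WT libraries, and the members share each library's normalization. The share of all genes below 0 is not given, and these medians were not computed under other scalings.

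Uqcrb was at 49.1, 55.9 and 48.8 FPKM in Dppa4 m-z-, 81.1, 132 and 94 FPKM in Dppa4 m-z+ libraries, against 171 and 161 FPKM in WT 2-cell libraries. The 3 groups did not overlap, but the m-z- to WT difference did not pass the test (-1.68 ± 0.34, limma adjusted p = 0.108). Atp5j2, a small membrane subunit of ATP synthase, was at 90.2, 35.3 and 53.3 FPKM in Dppa4 m-z-, 96.7, 75.7 and 76.1 FPKM in Dppa4 m-z+ libraries, against 201 and 184 FPKM in WT libraries (-1.78 ± 0.42 for m-z- against WT, adjusted p = 0.169). Cox7c was at 36.6, 69.5 and 23.9 FPKM in Dppa4 m-z- libraries, against 225 and 111 FPKM in WT libraries (-1.98 ± 0.45, adjusted p = 0.166). Ndufa8 went the other way. It was at 20.1, 8.84 and 5.46 FPKM in Dppa4 m-z-, 0.93, 2.64 and 2.05 FPKM in Dppa4 m-z+ libraries, against 2.0 and 1.1 FPKM in WT 2-cell libraries (m-z- against m-z+ 1.99 ± 0.47, adjusted p = 0.437). In Dppa2 m-z+ libraries Ndufa8 was at 8.81, 13.4 and 17.8 FPKM, above both WT libraries (2.46 ± 0.52, adjusted p = 0.089).

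The controls of the 2 arms differ in strain background and were compared directly. In m+z+ 2-cell total RNA, 13 members were higher and 2 lower on the mixed B6/DBA background of the Dppa2 arm than on B6, where 4.5% of all genes were higher and 4.63% lower. The median member differed by 0.36 and the median gene by 0.06. Cox5b was at 29.5 and 28 FPKM in mixed B6/DBA and 12.8 and 12 FPKM in B6 embryos (1.15 ± 0.14, limma adjusted p = 0.00147). Uqcrb was at 46.2 and 31 FPKM in mixed B6/DBA and 12.5 and 5.85 FPKM in B6 embryos (2.02 ± 0.30, adjusted p = 0.00326). Neither pair overlapped, and Cox5b has 1 and Uqcrb 3 near-identical copies in the genome. The other 11 were Ndufa2, Ndufa12, Ndufa13, Ndufb9, Ndufc2, Ndufs7, Ndufs8, Atp5h, Atp5j, Atp5j2 and Atp5o, with log2 differences of 1.00 to 1.76. Ndufa6 and Ndufaf4 were lower on the mixed background (-1.13 and -1.10).

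With only the 4 compared libraries fitted, 0 members were called in either direction. Without Dppa4 m+z+ 2-cell replicate 2 the count was 4 higher and 0 lower, without replicate 1 it was 17 higher and 4 lower, and without Dppa2 m+z+ 2-cell replicate 1 8 were higher and without its replicate 2 1 was lower. For the stage change between the backgrounds 21 members had an unadjusted p under 0.05, for which no share of all genes is given. No member passed the threshold (0.139% of all genes called), with Cox6b1 lowest in p (1.49 ± 0.35, limma adjusted p = 0.0971). That count was 7 without Dppa4 m+z+ 2-cell replicate 1, 1 without Dppa2 m+z+ 2-cell replicate 1 and 2 without its replicate 2.

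The same 13 members were looked up in libraries that had not chosen them, in contrasts added after seeing the data. In m-z+ 2-cell total RNA all 13 were higher in mixed B6/DBA than in B6 embryos (median 1.01), and Ndufa12, Ndufb9, Cox5b and Atp5j2 passed the threshold. In polyA RNA 13 of 13 were higher in m-z- (median 1.08) and 11 of 13 in m-z+ embryos (median 0.62), with Cox5b, Uqcrb and Atp5h called in m-z-. All members tested had medians of 0.40 in m-z+ 2-cell total, 0.57 in m-z- polyA and 0.36 in m-z+ polyA RNA. The medians of all genes there were 0.03, 0 and 0.16. A higher value was thus not particular to the 13, and these counts are of genes and not replicates. At the 1-cell stage 9 of 13 were higher in m-z+ (median 0.26) and 9 of 13 in m+z+ embryos (median 0.11), and only Cox5b in m-z+ passed (0.82 ± 0.14, adjusted p = 0.0167), a call lost without any 1 of the 4 libraries (0.76 to 0.87). Cox5b was at 22 and 21.9 FPKM in mixed B6/DBA m-z+ and 12.3 and 11.1 FPKM in B6 m-z+ 2-cell total RNA, and at 54 and 58.4 FPKM against 30.4 and 32.6 FPKM at 1-cell. In polyA RNA it was at 133, 169 and 256 FPKM in mixed B6/DBA and 52.7, 73.6 and 82.1 FPKM in B6 m-z- embryos. The backgrounds did not overlap for Cox5b in any of these pairs. Ndufaf4, lower on the mixed background in m+z+ embryos, was higher there in m-z+ embryos (1.25 ± 0.29, adjusted p = 0.0358).

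**Figure D5:**
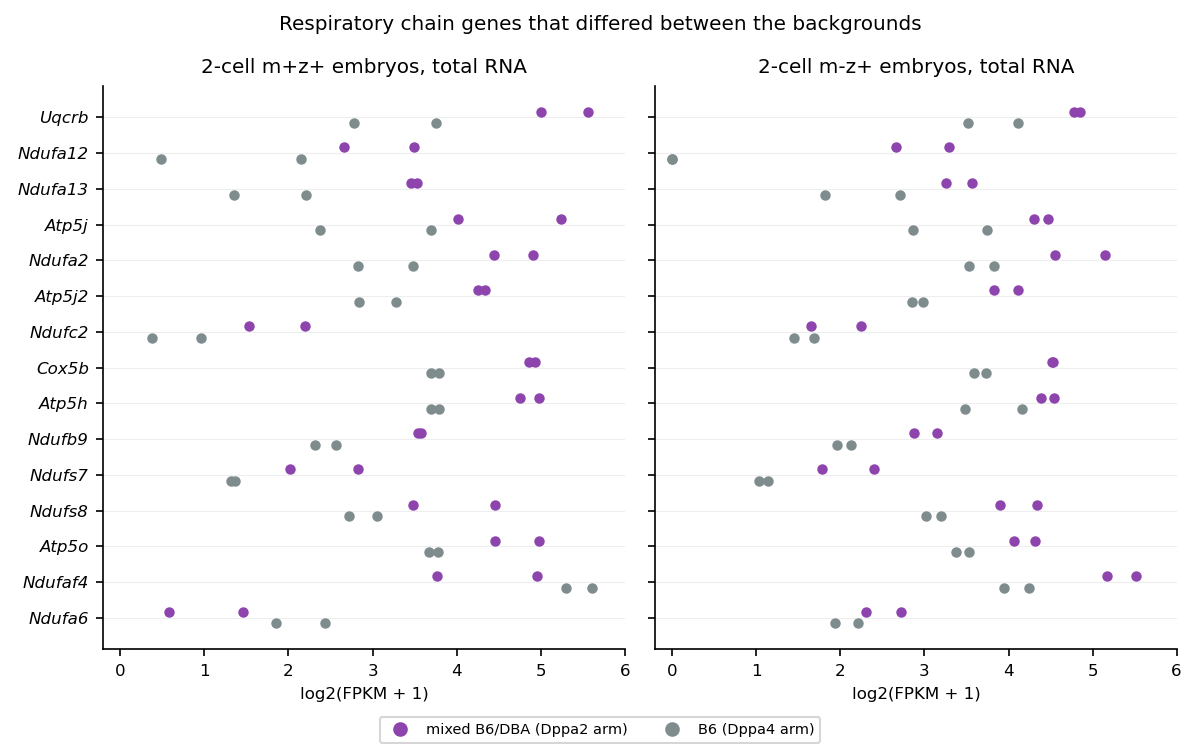
Level of the 15 members called between the backgrounds in m+z+ 2-cell total RNA, as log2(FPKM + 1) of each library (x axis), with mixed B6/DBA (purple) above B6 (grey) for each gene (y axis). The left panel shows the m+z+ libraries that made the calls and the right panel the m-z+ libraries, in which the 13 higher members keep their direction and Ndufa6 and Ndufaf4 do not.

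Over all members, 9 were higher and 1 (Ndufa10) lower on the mixed background in m-z+ 2-cell total RNA (2.12% and 2.13% of all genes), 1 was higher at 1-cell (0.491%), none was called in m+z+ 1-cell (1.01%), 6 were higher and none lower in m-z- polyA (0.962% and 0.811%), and none was called in m-z+ polyA RNA (0.108% and 0.0919%). The 6 in m-z- polyA RNA were Sdhd, Uqcrb, Uqcrc1, Cox5b, Atp5h and Ndufaf7. Sdhd was at 53.9, 50.3 and 18.8 FPKM in libraries labelled Dppa2 m-z-, against 2.87, 11.3 and 9.61 FPKM in Dppa4 m-z- libraries (2.26 ± 0.48, adjusted p = 0.0272), without overlap. The 9 higher members in m-z+ 2-cell total RNA became 1 without Dppa4 m-z+ replicate 1 and 5 without replicate 2, and the lower one was lost without Dppa4 m-z+ or Dppa2 m-z+ replicate 1. Rescaled to TPM, 4 were higher and 1 lower, with 147 and 300 of all genes. The 6 in polyA RNA became 0 without replicate 1 labelled Dppa2 m-z-, 1 without its replicate 2 and 2 without Dppa4 m-z- replicate 1.

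Genes that work with the chain, outside the name rule, put these changes beside the rest of the organelle. All 13 mitochondrially encoded subunits rose in all 5 stage comparisons, with medians of 1.46, 1.67, 1.65 and 1.71 in Dppa2 m-z+, Dppa2 m+z+, Dppa4 m-z+ and Dppa4 m+z+ total RNA and 2.15 in WT polyA RNA. Their nuclear partners had negative medians in total RNA, as given above. Of 40 chain genes and assembly factors under other names, 7 rose and 15 fell in Dppa4 m+z+ total RNA and 11 rose and 4 fell in WT polyA RNA. Of all genes, 24.9% rose and 24.2% fell in the former and 17.4% and 8.42% in the latter, also for the next lists. Cyc1, the cytochrome subunit of complex III, averaged 58.5 FPKM in WT 2-cell embryos and 0.897 FPKM in WT 1-cell embryos in polyA RNA (4.96 ± 0.56). Of 17 genes of the citric acid cycle, 2 rose and 9 fell in Dppa4 m+z+ total RNA, and of 16 tested 7 rose and 3 fell in WT polyA RNA. Mdh2 (malate dehydrogenase) rose in both (1.72 ± 0.31 and 3.67 ± 0.58) and Fh1 (fumarase) fell in both (-1.13 ± 0.26 and -2.14 ± 0.67).

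Of 13 regulators of mitochondrial gene expression tested, 4 rose and 5 fell in Dppa4 m+z+ total RNA (24.9% and 24.2% of all genes). In WT polyA RNA 5 of 12 rose and 3 fell (17.4% and 8.42% of all genes). Gabpa, the DNA-binding subunit of nuclear respiratory factor 2, averaged 109.8 FPKM in Dppa4 m+z+ 2-cell and 0.88 FPKM in 1-cell total RNA (5.90 ± 0.38, adjusted p = 1.6e-07). Its exons overlap those of Atp5j on the other strand, which the unstranded polyA libraries cannot separate. Nrf1 averaged 19.8 FPKM in Dppa4 m+z+ 2-cell and 29.1 FPKM in 1-cell total RNA (-0.56 ± 0.20, adjusted p = 0.034), and was not called in WT polyA RNA (0.81 ± 0.44). Tfam, which packages mitochondrial DNA, fell in Dppa4 m+z+ total RNA (-1.59 ± 0.32, adjusted p = 0.0011).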

How the data were processed

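Total RNA libraries were stranded and polyA libraries unstranded, per the labels' protocols. The authors deposited FPKM values per gene in 2 tables of 16 libraries each, normalized separately. Reads were aligned with HISAT2 2.1.0 to mm10 and quantified with StringTie 1.3.3b, per the submitters' processing notes. Which annotation and strand option were used is not stated there, and without counts the depth is unknown, so no counting interval is given.

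A gene was kept when 2 or more libraries reached 1 FPKM. log2(FPKM + 1) was fitted with limma 3.58.1 (R 4.3.3, statmod 1.5.0, trended and robust moderation) over all 16 libraries of a table, two-sided, with Benjamini-Hochberg adjustment over all genes kept and a threshold of 0.05. The fit was checked on simulated data. Near-identical copies are stretches of at least 200 bases with at least 95% identity in annotated transcripts. 92 members were found in the annotation, 22 of them with such copies and 29 with exons overlapping a gene on the other strand. Not all are marked where their values are given. Among those with copies are Cox7c and Atp5o (1 each), Cox6c and Cox7b (2 each) and Atp5h (4). Ndufa11, Ndufaf3, Uqcrc2, Atp5a1 and Atp5o are among those with an overlap.

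Named by rule were Ndufaf4, central subunits of each complex, isoform families, the 6 largest rises and falls per stage comparison without overlap, members called by genotype or background (otherwise the 3 with the lowest p), and the 5 highest members per table. Ndufv2 and the other genes outside it were chosen after their values were seen. The members and lists were chosen with earlier results of these data known. Alternatives were a pseudocount of 0.1, no filter, TPM and median-ratio scaling, a replicate block, only the compared libraries, and each library left out. One member's results are not reported here.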

Additional observations from a re-analysis of the deposited data

How the results depend on the processing

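No named change turned round past the threshold: of 3016 alternatives for 289 results of named members, 2626 kept direction and call, 283 lost the call, 42 gained one and 65 changed the sign of a value that was not called. Rescaled to TPM, members that rose numbered 13 in Dppa2 m+z+, 7 in Dppa4 m-z+ and 7 in Dppa4 m+z+, members that fell in WT polyA RNA 13 (15 with median-ratio scaling), and members higher on the mixed background 4 in m-z+ 2-cell and 0 in m-z+ 1-cell total RNA. The counts of all genes moved under these scalings too, as given above for the stage comparisons. In the comparison of mixed B6/DBA with B6 m+z+ 2-cell embryos, 8 were higher with a pseudocount of 0.1, and 7 were higher and 0 lower without the filter. Without the filter, m-z+ 2-cell total RNA had 4 higher and 0 lower, and m-z- polyA RNA 2 higher. With only the compared libraries, every background comparison had 0 in either direction. The cause of these moves was not tested, beyond the fewer libraries or more genes that a setting implies. Leaving out 1 library at a time gave 10 to 14 risen and 33 to 38 fallen in Dppa2 m-z+, 16 to 24 and 30 to 36 in Dppa2 m+z+, 7 to 12 and 34 to 41 in Dppa4 m-z+, 6 to 13 and 32 to 38 in Dppa4 m+z+, and 27 to 32 and 5 to 6 in WT polyA RNA. It gave 1 to 3 for Dppa2 genotype at 2-cell, 0 to 1 for the arm difference, 4 to 17 higher and 0 to 4 lower for the m+z+ background at 2-cell, 0 to 7 for the stage change by background, 1 to 10 higher and 0 to 1 lower in m-z+ 2-cell total RNA, 0 at m-z+ 1-cell, and 0 to 1 and 0 to 6 higher in m-z+ and m-z- polyA RNA. Same-numbered replicates did not pair (correlations over all pairs of groups of -0.14 to 0.14 in total and -0.18 to 0.12 in polyA RNA). With a replicate block, risen and fallen members were 15 and 37, 24 and 35, 13 and 46, 14 and 45, and 35 and 9 in the stage comparisons in the order above, and 11 higher and 2 lower for the m+z+ background at 2-cell.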
